A study of Homo sapiens with 6 samples.

Results

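The microtubule severing enzymes examined here were fidgetin (FIGN), fidgetin-like 1 (FIGNL1), the catalytic katanin subunits KATNA1 and KATNAL1, and spastin (SPAST). They were chosen by gene name, as the fidgetin, katanin and spastin genes with single-gene probe sets on the array, with 1 reservation. FIGN had already been picked out on these arrays because it was higher with MIST1, so its values with MIST1 are given as a description with no test. The 5 genes have 11 probe sets of 41091 single-gene probe sets, and 10 of the 11 were among the 25948 bright enough to be tested. FIGN has 4 of them, FIGNL1, KATNAL1 and SPAST have 2 each, and KATNA1 has 1. Probe sets of 1 gene share its transcript and were not counted as replicates.

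Severing enzymes are ATPases of the AAA family that assemble into rings on a microtubule, grip the tail of a tubulin subunit and pull it out of the lattice, which breaks the polymer or thins it. Katanins act at spindle poles, in cilia and in neurons, spastin acts on the endoplasmic reticulum, at endosomes and at the midbody, and fidgetin trims labile microtubules. FIGNL1 is best known for its part in DNA repair.

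The study asked which genes are higher when MIST1 is supplied. MIST1 (gene symbol BHLHA15) is a basic helix-loop-helix transcription factor of secretory cells such as the zymogenic cells of the stomach. It was transfected transiently into AGS and HGC-27, both established human gastric cancer lines, and RNA was measured on 6 Affymetrix arrays, 1 for each of 3 conditions in each line. Parental cells received no plasmid. GFP control cells received 3 µg of empty vector with 1.5 µg of pmaxGFP, which encodes green fluorescent protein, and MIST1 cells received 3 µg of MIST1 plasmid with the same 1.5 µg of pmaxGFP. Both transfected populations were sorted for GFP at 24 h and harvested another 24 h later, whereas no label describes sorting of the parental cells. Which promoter drives MIST1 from the plasmid is not stated in any source used here. The lines are the replicates of a condition, so n = 2 for each. The fit includes cell line and condition, so its p-values rest on how far the condition differences disagree between the lines. Information on that spread is shared across probe sets. No p-value measures the spread between cultures of 1 line.

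The median intensity of an array was 49.12 to 51.96, and arrays of the same line correlated at 0.968 to 0.995 against 0.705 to 0.730 between lines (Pearson r over probe sets, log2 scale). The AGS values of the BHLHA15 probe set were 66.34 (parental), 75.85 (GFP control) and 72.51 (MIST1), and the HGC-27 values were 41.14, 61.87 and 58.68. It was no higher on the MIST1 arrays than on the GFP control arrays, and since the files do not show whether it detects the plasmid's transcript, it does not check the labels. The epithelial markers KRT8, KRT18, KRT19 and EPCAM were bright in AGS, with KRT18 at 14741 to 16978. In HGC-27, KRT18, KRT19 and EPCAM stayed between 5.9 and 35.81, under the median of all values (50.53), while the mesenchymal marker VIM read 12532 to 13731. These 3 epithelial markers were thus dim in HGC-27, whereas KRT8 still read 1349.5 to 1562.1 there. The epithelial marker CDH1 read 220.68 to 291.37 in AGS and 22.08 to 89.76 in HGC-27. Of the other mesenchymal markers, ZEB1 and FN1 were higher in HGC-27, while CDH2 did not separate the lines (44.36 to 57.63 on all 6 arrays). In whole cultures, fewer cells carrying a transcript and less of it per cell cannot be told apart.

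MIST1 binds E-boxes, short motifs of the form CANNTG, and prefers CATATG. The promoter windows of the 5 genes were taken from RefSeq (GRCh38.p14), 250 bases before to 50 after each annotated start. All 5 genes matched, with 6 windows because KATNAL1 has 2. CATATG occurred in 0 of the 6 windows, and 3.04% of 35116 promoter windows in the table hold it. Some CANNTG motif occurred in 3 windows, those of FIGN, FIGNL1 and KATNA1, against 68.7% of all windows. Both motifs read the same on either strand, and CANNTG includes CATATG. The FIGN motif is CAGCTG, with its first base 5 bases before the start (17.9% of all windows hold CAGCTG). FIGNL1 has CAGGTG 110 bases before its start, and KATNA1 has CAAGTG 224 and CACCTG 200 bases before; CAGGTG or its reverse complement CACCTG is in 20.6% of all windows. The stretches from 150 bases before the start onward are shown for the fidgetin pair, because FIGN was higher with MIST1 and its namesake was not, and capitals mark the CANNTG motif. They lie on the minus strand of GRCh38.p14, at chr2:163736003-163736158 for FIGN and chr7:50450345-50450500 for FIGNL1. The matches describe these letters only.
FIGN: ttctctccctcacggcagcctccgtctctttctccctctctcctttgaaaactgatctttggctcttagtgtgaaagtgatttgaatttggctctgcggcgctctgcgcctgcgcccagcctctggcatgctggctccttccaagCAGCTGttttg
FIGNL1: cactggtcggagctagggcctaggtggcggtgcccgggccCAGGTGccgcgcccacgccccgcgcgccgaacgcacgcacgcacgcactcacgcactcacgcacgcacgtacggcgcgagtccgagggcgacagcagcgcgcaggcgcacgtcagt

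In these RefSeq annotations FIGN spans chr2:163602611-163736008 and FIGNL1 the much shorter chr7:50444133-50450350. KATNA1 lies at chr6:149594873-149648990, KATNAL1 at chr13:30202630-30307551 and SPAST at chr2:32063556-32157637. The positions of the array's probes within these genes were not analysed here.

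FIGN was the member that stood higher with MIST1 than in either control in both lines, on all 4 of its probe sets. Against the GFP control, the differences were 1.63- to 2.72-fold over the 4 probe sets and both lines. The probe sets of the other 4 genes stayed between 0.893 and 1.07 times the GFP control. Each value below is the deposited intensity of 1 array, so a fold within a line has no error of its own.

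The FIGN probe set with the highest mean, 242828_at, read 117.01 in AGS parental cells, 135.41 in the AGS GFP control and 237.40 in AGS with MIST1. In HGC-27 it read 84.48, 88.89 and 145.09 in the same order. Both MIST1 arrays were above all 4 control arrays. FIGN was chosen for being higher with MIST1, so this describes that choice. How many of all probe sets separate in the same way was not counted. The ratio of MIST1 to GFP control was 1.75 for AGS and 1.63 for HGC-27, and that of MIST1 to parental cells 2.03 and 1.72.

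The FIGN probe set 239710_at read 107.11, 105.12 and 187.16 in AGS, against 68.16, 58.28 and 107.32 in HGC-27. Here the lower MIST1 array, from HGC-27, lay barely above the highest control array, from AGS parental cells. Set against the GFP control, AGS was at 1.78-fold and HGC-27 at 1.84-fold, and against parental cells they were at 1.75-fold and 1.57-fold.

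FIGN 222956_at read 70.92, 66.87 and 121.47 in AGS, against 23.18, 32.25 and 64.49 in HGC-27. The HGC-27 MIST1 array was below the AGS controls, so across lines the groups overlapped, while within each line MIST1 was the highest. The folds over GFP control were 1.82 and 2.0, and those over parental 1.71 and 2.78. The HGC-27 controls of this probe set were under the median of all values.

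The dimmest FIGN probe set, 238964_at, exceeded the median on 1 array and was not tested. It read 45.76, 19.73 and 53.71 in AGS, against 28.91, 21.66 and 41.78 in HGC-27. MIST1 was again highest in each line, but the GFP control was the lowest array in both, so the fold depended on the control. It was 2.72 and 1.93 over the GFP control and 1.17 and 1.45 over parental cells.

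**Figure D1:**
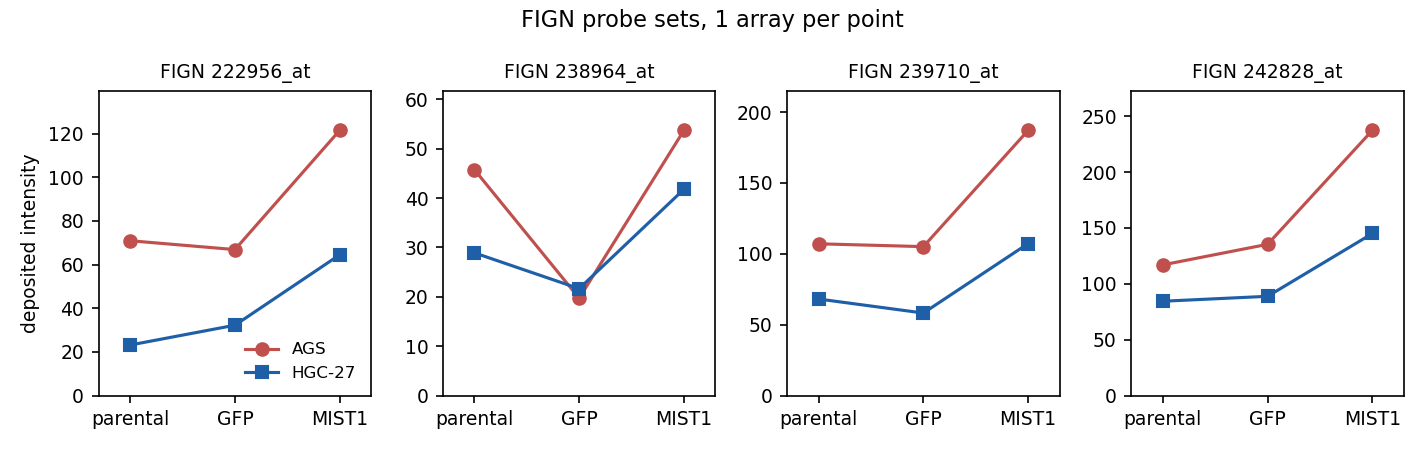
Deposited intensity (linear axis from 0, own scale per panel) of the 4 FIGN probe sets in parental, GFP control and MIST1 cells, 1 array per point, with lines joining the arrays of AGS (circles) and HGC-27 (squares). MIST1 is the highest array of its line in all 4 panels, and for 238964_at the AGS parental value of 45.76 lies near the MIST1 value of 53.71.

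Across both lines (n = 2), the mean log2 difference of MIST1 minus GFP control was 0.93 for FIGN 222956_at, 0.86 for 239710_at and 0.76 for 242828_at. The limma fit gave them an SE of 0.25, 0.17 and 0.16 in the same order. That SE draws on all 6 arrays and on a spread shared across probe sets. It is thus not the spread of the 2 line differences, whose SD was 0.098, 0.034 and 0.073. Among all 25948 probe sets tested, 0.389% in AGS and 0.644% in HGC-27 had a MIST1 over GFP control value at least as high as that of FIGN 242828_at. The shares were 0.362% and 0.312% for 239710_at and 0.297% and 0.177% for 222956_at. These ranks describe how FIGN was chosen and support nothing further.

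The authors named Boolean comparisons, in which a gene has to be higher than each control in each line. Counted here as at least 1.5-fold above the GFP control and the parental cells in both AGS and HGC-27, 30 of 25948 probe sets (0.116%) met the condition. FIGN supplied 3 of the 30, its 3 tested probe sets, and the other enzymes 0 of 7. FIGN was chosen for meeting this condition. With the limit raised to 2-fold, 5 probe sets met it and none was FIGN. With a floor at the median of all values, 20 met it and 222956_at dropped out.

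Neither the second fidgetin nor the katanins or spastin followed FIGN in its rise over the GFP control. FIGNL1 222843_at read 752.13, 718.09 and 721.95 in AGS parental, GFP control and MIST1 cells, and 476.94, 553.83 and 500.37 in HGC-27. FIGNL1 1552921_a_at read 442.19, 421.53 and 452.32 in AGS, against 288.85, 355.79 and 317.58 in HGC-27. On both probe sets the MIST1 array of HGC-27 lay between its controls. The fitted MIST1 minus GFP control differences were -0.07 (SE 0.13) and -0.03 (SE 0.15) on the log2 scale, less than their SE.

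KATNA1, the catalytic subunit of the classical katanin complex, read 682.35, 591.20 and 616.91 in AGS, against 495.95, 637.36 and 569.11 in HGC-27. Its MIST1 arrays lay between the controls of each line, with a fitted MIST1 minus GFP control difference of -0.05 (SE 0.16).

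KATNAL1, a second katanin ATPase, read 377.03, 373.75 and 387.27 in AGS, against 345.55, 389.08 and 385.17 in HGC-27 by 227713_at. Its other probe set, 223790_at, read 192.57, 176.63 and 172.18 in AGS, against 177.31, 241.82 and 220.70 in HGC-27. The MIST1 minus GFP control differences were 0.02 (SE 0.14) and -0.08 (SE 0.19), both smaller than their SE. The first probe set was nearly flat across all 6 arrays, and the second was highest in the HGC-27 GFP control.

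SPAST, mutated in the most common form of hereditary spastic paraplegia, read 856.77, 834.37 and 777.28 in AGS, against 1015.65, 1091.03 and 1062.57 in HGC-27 by 209748_at. By 207724_s_at it read 310.44, 364.23 and 336.26 in AGS, against 341.39, 479.40 and 464.87 in HGC-27. Every HGC-27 array exceeded its AGS counterpart on both probe sets. MIST1 minus GFP control was -0.07 (SE 0.11) and -0.08 (SE 0.15).

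**Figure D2:**
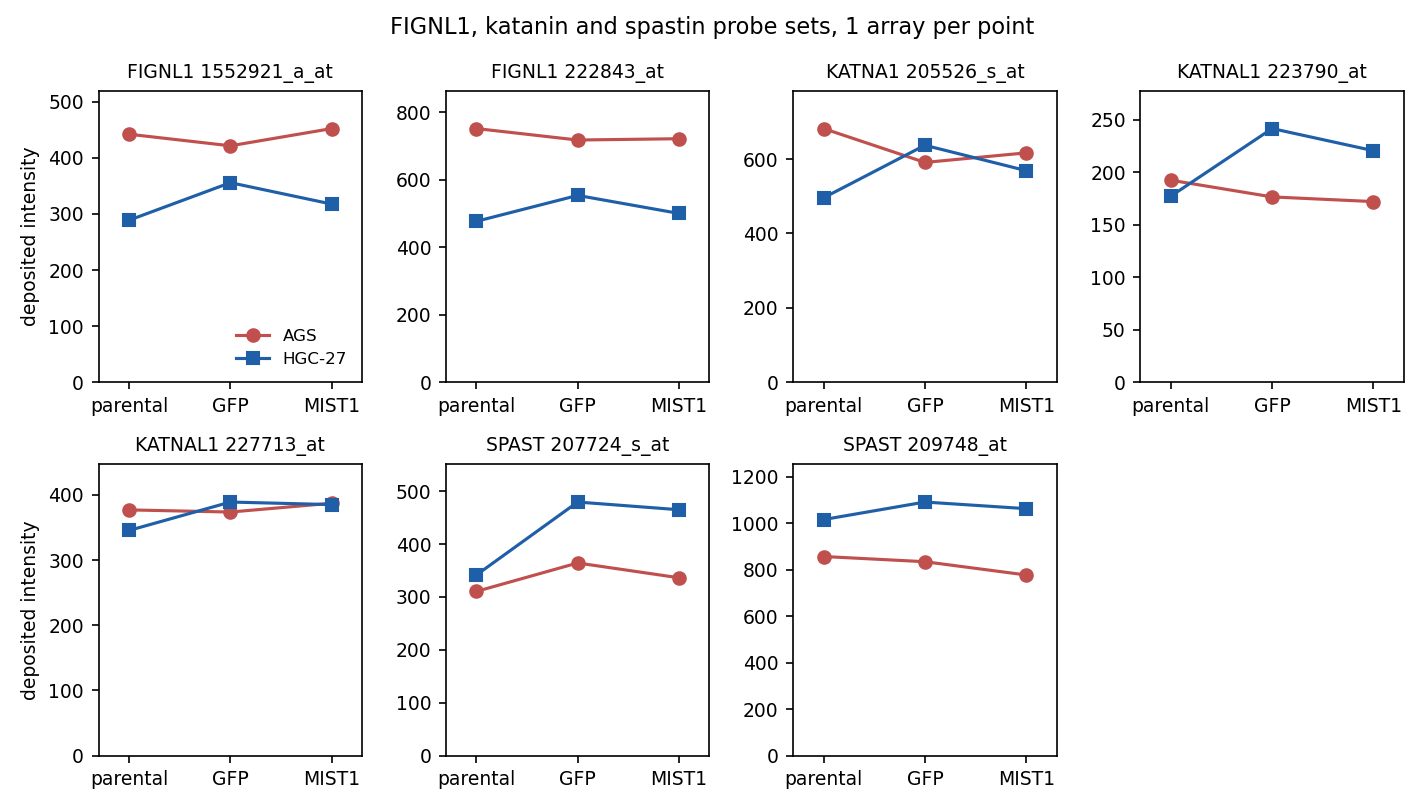
Deposited intensity (linear axis from 0, own scale per panel) of the 7 FIGNL1, KATNA1, KATNAL1 and SPAST probe sets, 1 array per point, AGS as circles and HGC-27 as squares. From GFP control to MIST1 the lines are nearly level, between 0.893-fold and 1.07-fold, and FIGNL1 is higher in AGS while SPAST is higher in HGC-27 in every condition.

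Over these 7 probe sets, MIST1 was below the GFP control in 7 of 7 in HGC-27 (6 of 7 after quantile normalization). The median log2 difference of all tested probe sets was itself -0.04 in HGC-27, so most of the array was lower there too. In AGS 4 were higher and 3 lower (3 and 4 after quantile normalization). The largest of the 7 was a fall of 0.16 on the log2 scale. For comparison, 85.3% of all tested probe sets in AGS and 81.3% in HGC-27 lay within 1.2-fold of the GFP control, so the relatives were in the bulk of the array. Against parental cells, MIST1 was higher for 7 of 7 in HGC-27, by up to 1.36-fold (6 of 7 after quantile normalization). The median log2 difference of all tested probe sets was itself 0.09 there. In AGS 3 were higher than parental and 4 lower (4 and 3 after quantile normalization).

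**Figure D3:**
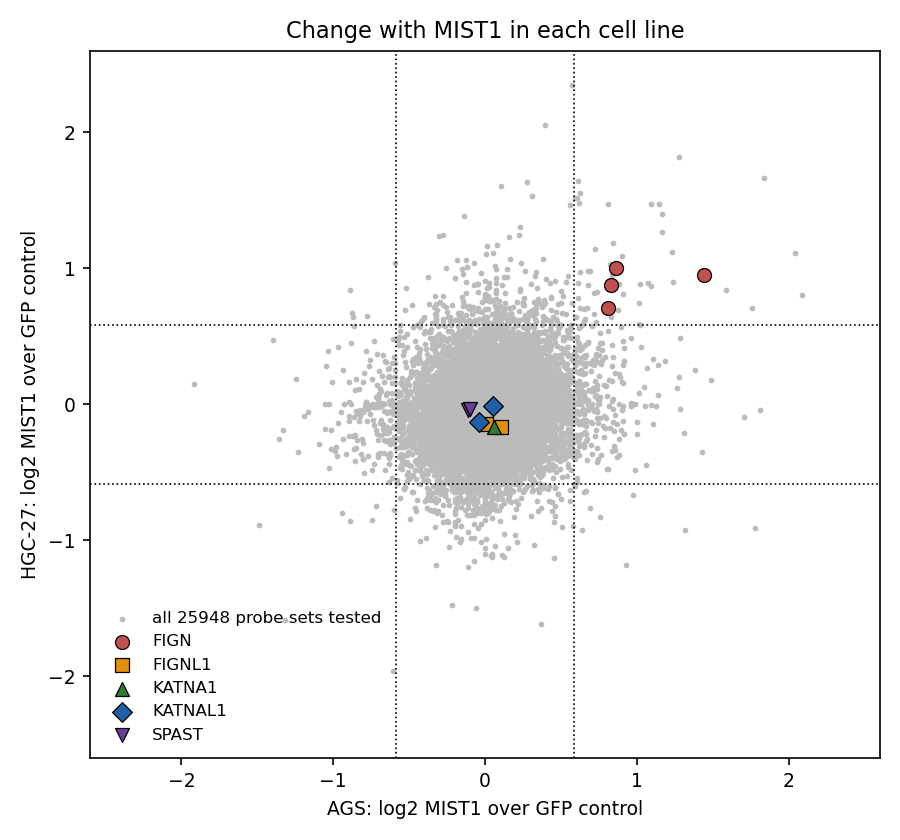
Log2 MIST1 over GFP control in AGS (x) against HGC-27 (y), 1 array per value, for all 25948 tested probe sets (grey, 1 outside the plotted range) and the 11 probe sets of the severing enzymes (coloured), of which FIGN 238964_at, the FIGN point furthest right, was not tested. Dotted lines mark 1.5-fold; the 4 FIGN points lie past it in both lines, and the other 7 sit near the origin.

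Transfection and sorting without MIST1 were compared next, as the GFP control against parental cells. None of the 10 tested probe sets of the enzymes passed (0 of 10 called by limma at an adjusted p of 0.05). Over all tested probe sets 80 were higher (0.308%) and 91 lower (0.351%) in the GFP control. For 9 of the 10 the fitted difference was above 0, where the median over all tested probe sets was 0.07. The exception was FIGN 239710_at at -0.13 (SE 0.17). The nearest to a call was SPAST 207724_s_at, 0.36 higher (SE 0.15) on the log2 scale and higher in both lines, with an unadjusted p of 0.0474 and an adjusted p of 0.213 by limma. It was the 1 probe set of the 10 with an unadjusted p under 0.05. FIGN's control arrays had also entered its choice.

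As deposited, most probe sets of the other enzymes moved in opposite directions in the lines in this step. After quantile normalization most were higher in both lines. The difference between the lines was not tested. In HGC-27 all 7 probe sets of FIGNL1, the katanins and SPAST stood above the parental value in the GFP control, before and after quantile normalization, while in AGS 6 of 7 were lower as deposited and 2 of 7 after quantile normalization. The deposited differences were 0.10 to 0.49 in HGC-27, where the median of all tested probe sets was itself 0.14. In AGS they were -0.21 to 0.23, where that median was 0. Quantile normalization moved that HGC-27 median by -0.11, to 0.03. The middle 18S ribosomal control probe set moved with the same comparison, from 1141.74 in AGS parental cells to 48.23 in the GFP control, and from 370.52 to 52.02 in HGC-27, and its part in the result was not tested. The 3' to 5' signal ratio, a sign of RNA integrity, lay between 0.826 and 0.883 for GAPDH on all 6 arrays.

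That none was called depended on the AGS parental array. Without it, limma called KATNA1 (0.31), KATNAL1 223790_at (0.42) and SPAST 207724_s_at (0.51) higher in the GFP control on the log2 scale. The parental level then rested on the HGC-27 array alone. Calls also rose steeply over the whole array in that fit, so these calls do not set the enzymes apart. With any other array left out 0 of the 10 were called. Leaving out 1 array moved the count over all probe sets from 171 to between 346 (without the HGC-27 GFP control) and 9946 (without AGS parental).

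The lines themselves differed for 7 of the 10 probe sets. AGS was higher for 5, the tested probe sets of FIGN and FIGNL1, and lower for 2, both of SPAST. The 3 conditions of a line stood in for replicates here, so the test does not measure the spread between cultures under 1 condition. Of all tested probe sets, 32.9% were higher and 26.9% lower in AGS, so most of the array was called, and 7 of 10 is close to that background.

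FIGN was higher in AGS by 1.19 (SE 0.20, limma adjusted p 0.00204) for 222956_at, by 0.77 (SE 0.14, 0.00294) for 239710_at and by 0.60 (SE 0.13, 0.00757) for 242828_at on the log2 scale. Each tested FIGN probe set was higher in AGS in 3 of 3 conditions. However, 222956_at exceeded the median on all 3 AGS arrays and on 1 HGC-27 array, so it passed the filter on low values through AGS, the line where it was then higher. The untested 238964_at was higher in AGS parental and MIST1 cells and slightly lower in the GFP control. FIGNL1 was higher in AGS by 0.52 (SE 0.11, limma adjusted p 0.00520) for 222843_at and by 0.46 (SE 0.12, 0.0167) for 1552921_a_at, again in 3 of 3 conditions. SPAST was lower in AGS by both probe sets, at -0.36 (SE 0.09, limma adjusted p 0.0140) for 209748_at and -0.33 (SE 0.12, 0.0499) for 207724_s_at. KATNA1 at 0.16 (SE 0.13, limma adjusted p 0.352) and KATNAL1 at -0.23 (SE 0.15, 0.237) for 223790_at and 0.03 (SE 0.11, 0.862) for 227713_at did not pass.

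**Figure D4:**
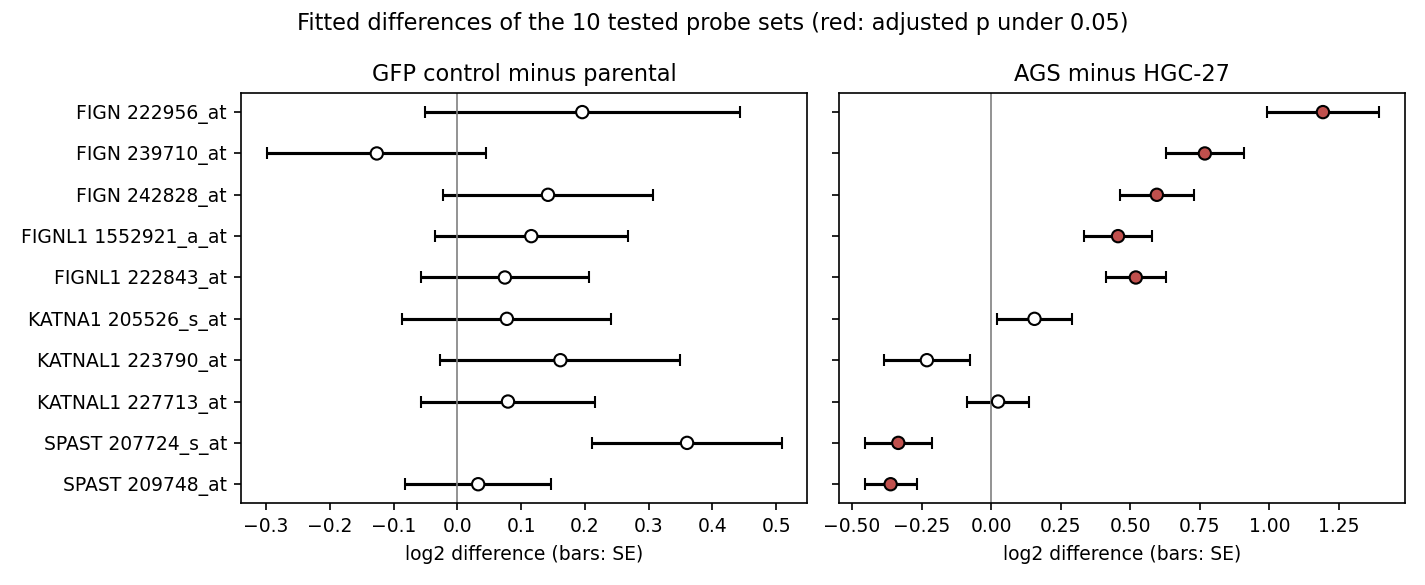
Fitted log2 differences (points) with their SE (bars) for the 10 tested probe sets, GFP control minus parental on the left and AGS minus HGC-27 on the right, from limma on 6 arrays; red points have an adjusted p under 0.05. None is red on the left, and on the right FIGN and FIGNL1 are red above 0 and SPAST red below 0.

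FIGN 222956_at and FIGNL1 222843_at were called in every alternative tried, although the difference of 222956_at fell from 1.19 to 0.60 when values were floored at the median. Apart from the fit with no filter, these alternatives kept the filter that 222956_at passed through AGS, so they are not independent of it. With no filter its limma adjusted p was 0.0417. With no term for condition, FIGN 239710_at (0.77, limma adjusted p 0.0647) and FIGN 242828_at (0.60, 0.148) were no longer called, and with no filter FIGNL1 1552921_a_at was not (0.0646). The call of SPAST 207724_s_at held in 3 of 12 alternatives, and its limma adjusted p ranged up to 0.364. Leaving out single arrays ended other limma calls: FIGN 242828_at without the AGS GFP control (0.59) or either MIST1 array (0.54), FIGNL1 1552921_a_at without either MIST1 array (0.43), and both SPAST probe sets without either GFP control or either MIST1 array (-0.35 and -0.32 for 209748_at, -0.30 and -0.27 for 207724_s_at). KATNAL1 223790_at was called lower in AGS without either parental array (-0.41).

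The genes whose pattern was most like FIGN were ranked by Pearson r with 242828_at over the 6 arrays. Log2 values were centred within each line, and 12111 probe sets were candidates, with the highest r of each gene kept. The first 5 were SWT1 (0.996), RAB26 (0.996), PIERCE2 (0.994), ACSL5 (0.992) and SFT2D1 (0.991). With 6 points that share their arrays, values this high are a description only. RAB26, a small GTPase of secretory vesicles, read 56.73, 70.91 and 149.47 in AGS parental, GFP control and MIST1 cells. In HGC-27 it read 123.59, 122.22 and 227.26. Its shape was that of FIGN 242828_at with a larger step. SWT1 read 114.45, 128.93 and 170.17 in AGS, against 117.66, 122.25 and 162.08 in HGC-27, a smaller step. The other FIGN probe sets had r of 0.957 (239710_at), 0.913 (222956_at) and 0.585 (238964_at) by the same measure. For the other enzymes r lay between -0.55 (SPAST 209748_at) and 0.50 (KATNAL1 227713_at), on centred values that hardly varied.

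The genes around the enzymes were read in 7 lists of 110 genes, of which 106 were on the array and 89 were tested, each by its brightest probe set. The lists covered microtubule genes, partners of the enzymes, genes of the endoplasmic reticulum and of ESCRT sorting, and proliferation genes. With MIST1, 0 of the 89 were at least 1.5-fold above and 0 at least 1.5-fold below the GFP control in both lines. Of all 13738 genes 29 were above (0.211%) and 3 below (0.0218%), so counts of 0 are near that background. The list medians of MIST1 minus GFP control ran from -0.05 to 0.12 beside -0.02 for all genes. The highest single gene was REEP5, a shaper of tubular endoplasmic reticulum, at 0.44 (SE 0.13), 0.28 in AGS and 0.61 in HGC-27. FIGN, at 0.76 for its brightest probe set, lay above all of them, but it was chosen for being higher with MIST1, so this is a description only.

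**Figure D5:**
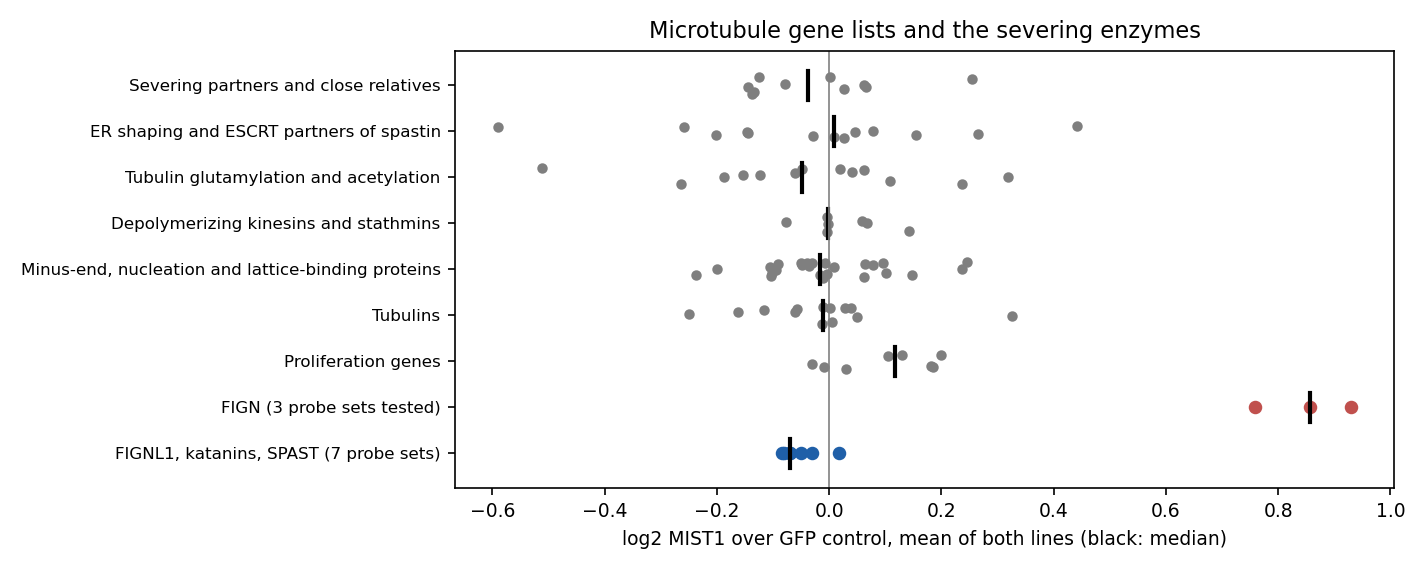
Log2 MIST1 over GFP control, mean of both lines, for each tested gene of 7 lists (grey, 1 probe set a gene), the 3 tested FIGN probe sets (red) and the 7 probe sets of the other enzymes (blue), with black bars at the medians. The lists hold microtubule genes, enzyme partners, endoplasmic reticulum and ESCRT genes, and proliferation genes. List medians lie between -0.05 and 0.12, and the FIGN values of 0.76 to 0.93 lie to the right of all other points. FIGN was chosen for being higher with MIST1.

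For the GFP control against parental cells limma called 0 of the 89, where 57 of 13738 genes were called higher (0.415%) and 39 lower (0.284%), so a count of 0 is near the background. Between the lines it called 30 higher in AGS and 24 lower, where 33.3% and 27.4% of all genes were called. Among severing partners and close relatives 3 of 10 were higher and 1 lower in AGS: FIRRM, a partner of FIGNL1 in DNA repair, by 1.01, SPIDR, another DNA repair factor that binds FIGNL1, by 0.61, the ESCRT ATPase VPS4A by 0.42, and LZTS2, which binds katanin, at -0.61. FIRRM and SPIDR thus stood higher in the same line as FIGNL1. Among spastin's partners in shaping the endoplasmic reticulum and in ESCRT sorting, 4 of 13 were higher and 3 lower. ATL1, an atlastin that fuses tubules of the endoplasmic reticulum, was at -3.36, SPART at -4.66, ZFYVE27 at -1.17 and CHMP1B, the ESCRT subunit that recruits spastin, at 1.12.

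Of the enzymes that set the tubulin code, 4 of 13 were higher and 7 lower in AGS. Polyglutamylation of tubulin tails is known to regulate spastin and katanin, and the list's glutamylases did not move one way. TTLL7 (-3.00) and TTLL1 (-1.77), the complex subunit TPGS1 (-1.39) and TTLL12 (-1.23) were lower in AGS, while the glutamylases TTLL4 (0.49) and TTLL5 (0.34), named after their values were seen, were higher. Of 25 minus-end, nucleation and lattice-binding proteins 9 were higher and 7 lower, with MAP7 at 5.09, MAP2 at 2.70 or more, MAP1B at -4.06 and MAP1A at -1.85. Of 13 tubulins 4 were higher and 4 lower, with TUBB2A at 1.29, TUBE1 at -1.75, TUBA1A at -6.04 and TUBB2B at -6.72. All 3 HGC-27 arrays of MAP2, 2 of 3 AGS arrays of TUBB2B and 1 of 3 AGS arrays of TTLL1 were under the floor of 17.6, so the floor limits those differences, and the dimmer line of MAP7, SPART and TTLL7 was under the median on all 3 arrays. Of 7 depolymerizing kinesins and stathmins 3 were higher and 2 lower, with STMN3 at -3.27, KIF2A at 0.51, KIF18B at -0.43 and KIF2C at 0.37. The probe sets used for TUBB2B, TPGS1 and LZTS2 have names ending in _x_at, which marks possible cross-hybridization with related transcripts.

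Of 8 proliferation genes 3 were higher and 0 lower in AGS, with MKI67 at 1.49, BUB1 at 0.68 and CDK1 at 0.22. Their median GFP control minus parental difference was -0.34, beside 0.07 for all genes, though limma called none of the 8.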

How the data were processed

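RNA of 6 samples was measured on 1-colour Affymetrix arrays. Per the labels' protocols, total RNA was extracted with a column kit and labelled by a one-cycle protocol. The authors deposited 1 linear intensity per probe set and array (0.48 to 19070.49). The series' design text names dChip; the background correction and scaling are not given in the sources used here. Of 54675 probe sets, 41097 have 1 gene in the platform annotation; 6 control probe sets that carry gene names were left out after a first run.

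Values were floored at the 25th percentile (17.6), taken to log2 and kept where at least 2 of 6 arrays exceeded the median (50.53). limma 3.58.1 in R 4.3.3 (lmFit, eBayes with trend) fitted cell line and condition on all 6 arrays, leaving 2 residual degrees of freedom; two-sided p-values were adjusted by Benjamini-Hochberg over 25948 probe sets (threshold 0.05). The number of arrays limits the precision. Tested on simulated data, the fit recovered most but not all changes, and a larger share of its calls was false than the threshold implies, in both comparisons.

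Members and gene lists were chosen with earlier results of these data known. The text names every member probe set, per list up to 4 genes past a test with the largest change, and the 5 genes most like FIGN (centred SD at least 0.2). REEP5 was named, and the promoter shares of the members' own E-boxes were looked up, after the values were seen. Alternatives changed the floor, filter, scaling, probe set choice, variance trend, model terms and arrays.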

Additional observations from a re-analysis of the deposited data

Results flagged for a closer look

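KATNA1 differed between the control conditions in opposite directions in the lines. The log2 difference of GFP control minus parental was -0.21 for AGS and 0.36 for HGC-27, and MIST1 minus parental was -0.15 and 0.20. KATNAL1 223790_at had MIST1 minus parental at -0.16 for AGS and 0.32 for HGC-27. These were listed because each line moved by at least 1.1-fold, a limit chosen after the values were seen, and the lines moved in opposite directions. With 1 array per line and condition, the difference between the lines was not tested. After quantile normalization the signs stayed opposite, at -0.09 and 0.27, -0.03 and 0.13, and -0.11 and 0.19 in the same order. However, in each pair the AGS value was then within 1.1-fold, so none still met the limit. The parental arrays, which enter all these values, also had the highest 18S control signal of their line (1141.74 and 370.52 by the middle probe set), and its part in the result was not tested.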

How the results depend on the processing

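FIGN 239710_at and 242828_at met the 1.5-fold condition under both other floors and quantile normalization. The count meeting it, 30, became 18 with 1 probe set a gene, 172 at 1.2-fold and 5 at 2-fold, and 32 to 130 with 1 array and its comparisons left out, where fewer conditions have to be met; the 3 FIGN probe sets met it each time an array was left out. With a floor at the median, MIST1 minus GFP control of FIGN 222956_at became 0.61 and of 238964_at 0.044, since the floor raises the dim control values. The count for GFP control against parental, 171, was 0 without the filter, without the trend, without the cell line block and with a median floor (6413, 5505, 700 and 5336 probe sets had an unadjusted limma p under 0.05). It was 52 with no floor, 34 with 1 probe set a gene, 505 after quantile normalization, 1586 with only 4 arrays and 346 to 9946 with 1 array left out. For AGS against HGC-27 the count of 15520 was 8303 with 1 probe set a gene, where fewer are tested. Uncalled differences changed sign. GFP control minus parental of FIGN 222956_at was -0.042 with the floor at the median. With 1 array left out it ranged from -0.12 to 0.51, FIGNL1 1552921_a_at from -0.043 to 0.27, FIGNL1 222843_at from -0.035 to 0.18, KATNA1 from -0.15 to 0.31, KATNAL1 223790_at from -0.10 to 0.42 and SPAST 209748_at from -0.054 to 0.12. AGS minus HGC-27 after quantile normalization was -0.0074 for KATNA1 and -0.12 for KATNAL1 227713_at, which ranged from -0.025 to 0.067 with 1 array left out. Except where stated, the cause was not tested. Each condition has 1 array a line, which limits the precision.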
